A study of Homo sapiens with 3 samples.

Results

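The TRIM and RNF families are sets of human genes that mostly encode ubiquitin ligases. They were followed in 3 RNA sequencing libraries of HEK293, an established line derived from human embryonic kidney cells. Members were every gene symbol made of TRIM or RNF, a number and at most 1 letter, whatever its counts. This gave 72 TRIM genes and 84 RNF genes, together 156 of the 26485 gene names in the tables, and all 156 are protein-coding in GENCODE release 29. The series holds 1 untreated condition grown in DMEM with fetal calf serum. The 3 libraries form a single HEK293 group with no drug, allele or time to compare, so the comparisons are between the families, between members and between libraries. Whether the replicates came from separate cultures is not stated, so the spread between these libraries may be technical. The p-values below apply to these 3 libraries only.

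Ubiquitin is activated by an E1 enzyme, passed to an E2 enzyme and placed on a substrate by a ligase, and ligases with a RING finger hold the loaded E2 beside the substrate. TRIM proteins carry the tripartite motif, a RING finger, B-boxes and a coiled coil, and several restrict viruses, act in innate immune signalling or silence chromatin. RNF is a naming series for other RING finger proteins. These are more diverse and include membrane ligases of the endoplasmic reticulum (ER) and endosomes, histone ligases of the DNA damage response and RING-between-RING enzymes.

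Gene-assigned counts were few, between 289241 and 483114 per library, or 2.02% ± 0.396 (SD, n = 3) of the records in the tables. Levels are given as CPM, counts per 1000000 of the TMM effective library size. A single count equalled 2.29 CPM in replicate 1, 2.31 CPM in replicate 2 and 3.30 CPM in replicate 3. A member without a count could therefore still lie below 6.86, 6.92 and 9.89 CPM in those libraries, the value of 3 counts (counting error only). Of 8 genes reported for this line, 7 had a count, NEFM and KRT18 a single one and PAX2 none, whereas none of 10 blood, liver and fibroblast markers did, against 54.7% of all names. The sources used here do not give the read counter's strand option. Whether a count under a member's name came from its own strand or the other can therefore not be told. Records that the counter called ambiguous averaged 0.0184%, and the values below are counts under gene names. Fewer cells expressing a gene and less RNA per cell cannot be told apart either.

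RNF names collected counts more often than TRIM names. A count in at least 1 library was found for 43 of 72 TRIM genes (59.7%) and 62 of 84 RNF genes (73.8%), against 54.7% of all gene names. A count in every library was found for 20 TRIM genes (27.8%) and 37 RNF genes (44.0%), against 29.2% of all names. The bar of 10 counts in each library was passed by 12 TRIM genes (16.7%) and 15 RNF genes (17.9%), against 9.68% of all names. No test was run on these shares, because genes are not replicates. The TRIM genes include 14 members listed as multicopy, of which 12 had no count. How alike their sequences are was not measured. Reads of similar copies can align to more than 1 place, so the values of these members are uncertain. How far they account for the lower TRIM shares was not tested. Per library, 38, 29 and 27 TRIM genes and 56, 46 and 51 RNF genes had a count in replicates 1, 2 and 3. Many detected members were near the floor: 26 of the 43 TRIM genes and 23 of the 62 RNF genes had at most 10 counts over all 3 libraries, against 7657 of the 14482 names with a count.

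Summed over all members, both families took similar amounts. TRIM genes summed to 2656, 3939 and 2769 CPM and RNF genes to 2686, 3105 and 2597 CPM in replicates 1, 2 and 3. TRIM genes were the lower family in replicate 1 and the higher family in replicates 2 and 3. The log2 ratio of TRIM to RNF was 0.14 ± 0.18 (SD, n = 3; exact sign-flip permutation test, two-sided, p = 0.50, where 3 libraries cannot give a p below 0.25). Together the families held 0.588% ± 0.0391 (SD, n = 3) of gene-assigned counts.

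A single gene held a large part of the TRIM total. TRIM13 held 42.1%, 53.0% and 42.3% of all TRIM counts in replicates 1, 2 and 3, whereas RNF40, the leading RNF gene, held 14.6%, 8.69% and 16.4% of RNF counts. The 5 highest members held 74.2% ± 5.04 of TRIM counts and 48.8% ± 1.70 of RNF counts (SD, n = 3 each). With TRIM13 and RNF40 left out, TRIM genes summed to 1538, 1853 and 1599 CPM and RNF genes to 2295, 2835 and 2172 CPM. The TRIM sum was then the lower in every library, with a log2 ratio of -0.54 ± 0.09 (SD, n = 3; exact sign-flip permutation test, two-sided, p = 0.25, the smallest possible). Per kilobase of exon the summed ratio was also negative, at -0.43 ± 0.15 (SD, n = 3). As a mean over all members of each family, TRIM genes were the higher in every library, with 36.9, 54.7 and 38.5 CPM per TRIM gene, 32.0, 37.0 and 30.9 CPM per RNF gene and a log2 ratio of 0.36 ± 0.18 (SD, n = 3; exact sign-flip permutation test, two-sided, p = 0.25). The median member with a count had 1.22 ± 0.663 CPM per kilobase of exon among TRIM genes and 2.42 ± 0.575 among RNF genes (SD, n = 3), against 1.65 ± 0.263 for all names with a count.

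**Figure D1:**
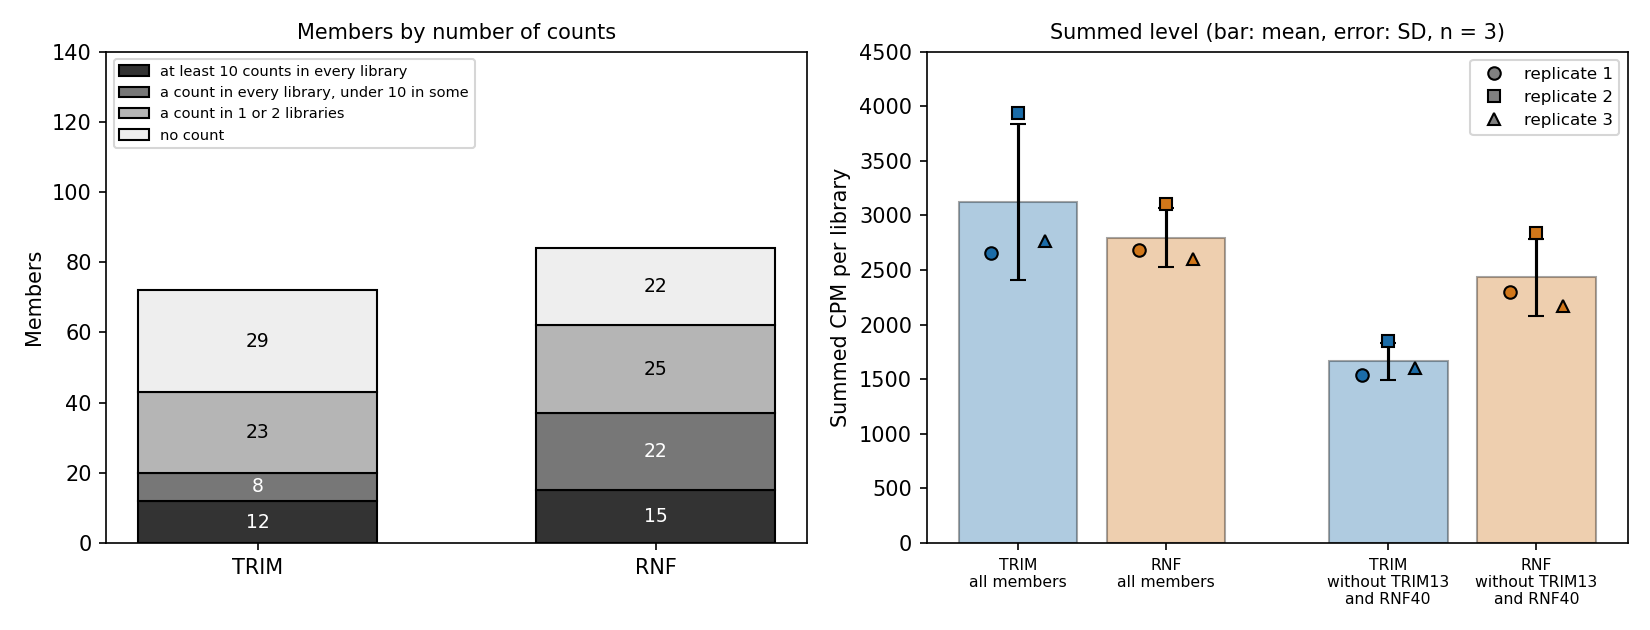
Left, numbers of TRIM and RNF members by how many counts they had in the 3 libraries. Right, summed CPM per library (points) with the mean and SD of 3 libraries (bars). With all members the TRIM mean is 3121 CPM and the RNF mean 2796 CPM, and without TRIM13 and RNF40 the means are 1663 and 2434 CPM.

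TRIM13, which encodes an ER-anchored ligase and lies in the chromosome 13 region often deleted in chronic lymphocytic leukaemia, was the highest member of either family. It had 1118, 2086 and 1170 CPM in replicates 1, 2 and 3, from 489, 905 and 355 counts. Replicate 2 stood clearly above the other libraries, which were close to each other. TRIM13 lies on the plus strand of chromosome 13 from 49995888 to 50020481 (GRCh38), inside the long non-coding RNA gene DLEU2 on the minus strand, with which it shares 346 bp of exon. DLEU2 had 177, 98 and 112 counts, and its lowest count was in the library where TRIM13 was highest. TRIM59, the other membrane-anchored TRIM on the list of transmembrane members, had 286, 413 and 287 CPM, again with replicate 2 apart. It lies on the minus strand of chromosome 3 from 160432445 to 160485773, and its 3' end shares 1561 bp of exon with SMC4, a condensin subunit gene. TRIM59 had 125, 179 and 87 counts against 47, 97 and 45 for SMC4, so both names were highest in replicate 2.

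TRIM52, whose protein carries a RING finger and B-box without the usual C-terminal domain, had 174, 254 and 234 CPM. It lies on chromosome 5 from 181254417 to 181261139 and shares 1868 bp of exon with CTC-338M12.4, which had 73, 69 and 44 counts. TRIM14, a mitochondrial adaptor of antiviral signalling that lacks a RING finger, had 192, 203 and 112 CPM, and replicate 3 was the low library. TRIM2, which in mice ubiquitinates neurofilament light chain, had 91.4, 189 and 211 CPM. TRIM37, a ligase of peroxisomes and centrosomes that is mutated in Mulibrey nanism, had 66.3, 161 and 168 CPM. In both TRIM2 and TRIM37 replicate 1 lay below the other libraries. TRIM17, a regulator of neuronal apoptosis in mice, had 110, 104 and 129 CPM, TRIM41, a ligase for protein kinase C, had 110, 85.3 and 129 CPM, and TRIM45, a repressor of MAP kinase signalling, had 110, 106 and 92.3 CPM. None of these last members had a library far from the others. Per kilobase of exon TRIM13, TRIM59 and TRIM52 kept the first places and TRIM17 followed, ahead of TRIM14, TRIM37 and TRIM2, with TRIM13 at 180 ± 67.4, TRIM59 at 41.8 ± 9.28, TRIM52 at 33.6 ± 6.34 and TRIM17 at 32.1 ± 3.65 CPM per kilobase (SD, n = 3 each). TRIM52 and TRIM17 differed by less than their spread, and TRIM59 lay above TRIM17 by slightly more than its own SD.

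RNF40, which with RNF20 ubiquitinates histone H2B, had 391, 270 and 425 CPM, and replicate 2 was the low library. It lies on chromosome 16 from 30761745 to 30776307, and 47.2% of its exon length faces exons on the other strand. RNF213, a very large ligase with an ATPase core, had 242, 385 and 204 CPM. RNF32, a gene with known expression in testis, had 190, 341 and 244 CPM. RNF169, a relative of the DNA damage ligase RNF168, had 192, 307 and 181 CPM, and RNF13, a ligase of endosomes and lysosomes, had 149, 279 and 221 CPM. Replicate 2 was the high library in all 4 of these. RNF139, a sterol-regulated ER ligase also called TRC8, had 245, 233 and 247 CPM, a narrow range. RNF212B, a meiotic recombination gene in mice, had 142, 210 and 158 CPM, and RNF123, a ligase for the cell cycle inhibitor CDKN1B, had 101, 96.8 and 132 CPM. Per kilobase of exon RNF139 led with 89.5 ± 2.84, ahead of RNF212B at 82.5 ± 17.2, RNF13 at 59.5 ± 17.96, RNF32 at 59.1 ± 17.6 and RNF40 at 55.5 ± 12.5 CPM per kilobase (SD, n = 3 each). The difference between the first pair was smaller than their spread, and so were the differences among the other 3. RNF213, second in CPM, had 9.70 ± 3.33 CPM per kilobase (SD, n = 3) over 28570 bp of exon.

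**Figure D2:**
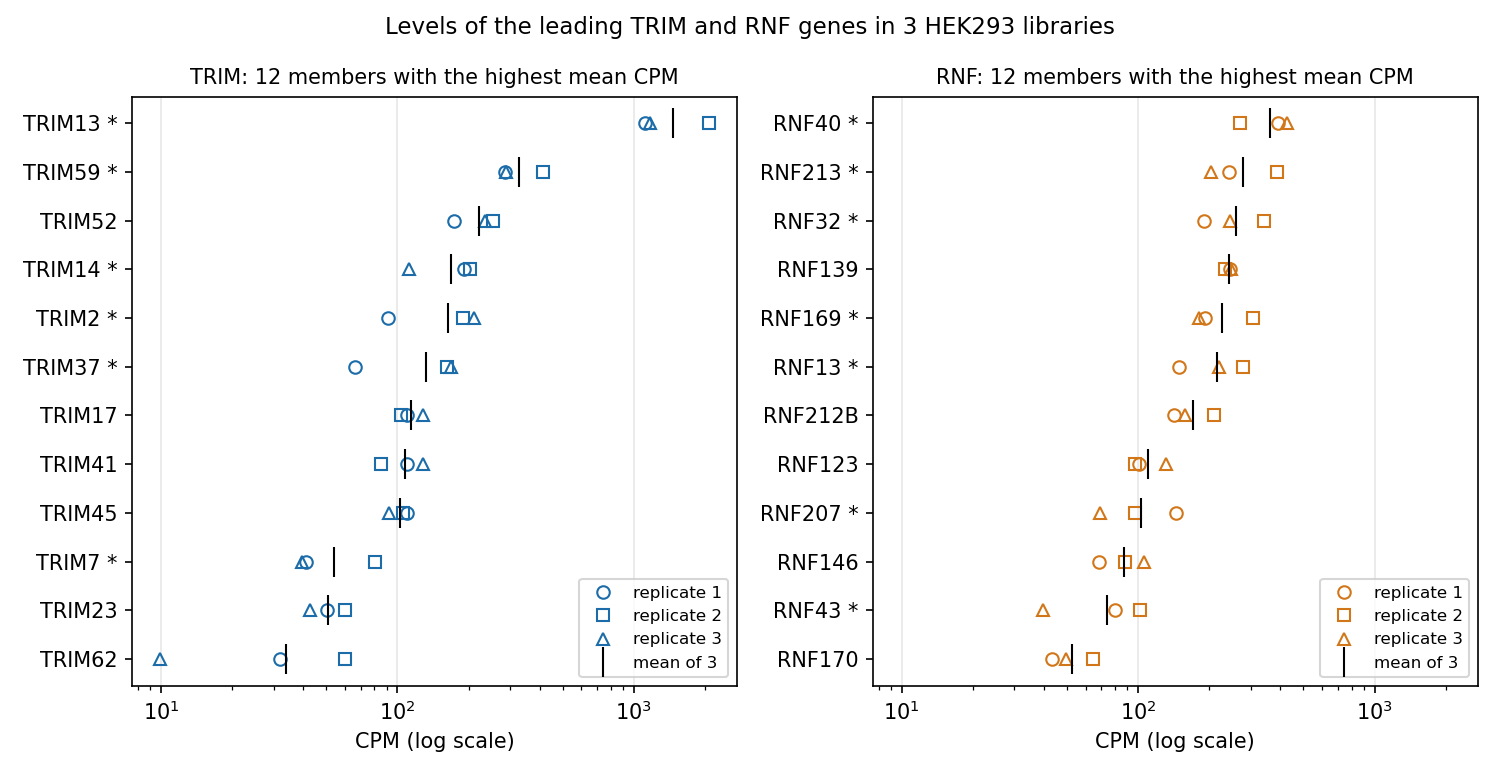
CPM in each library (open symbols, log axis) and the mean of 3 (black bar) for the 12 TRIM and 12 RNF members with the highest mean CPM. An asterisk marks an adjusted p under 0.05 in the test of variation between libraries. TRIM13 stands apart at 1118 to 2086 CPM, whereas the leading RNF members lie close together.

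Over all members with a window, the start regions of the families differed in base composition. In each family the windows shown belong to the highest member with a window and to a member without any count. The latter had the highest ratio of observed to expected CpG among members without a count. A name with counts and a name without can thus be read side by side. The windows run from 250 bases before to 50 after the most upstream start in RefSeq (GRCh38.p14), and capitals mark motif matches on either strand. The letters TATAAA were searched as the core promoter element near many start sites. The CCAAT box is named by its own letters. Searches for Sp1-type boxes used GGGCGG, called a GC box below, and searches for ETS factor cores used CCGGAAG. The motifs do not contain each other, and the 8 capitals in RNF40 are overlapping TATA boxes on both strands. TRIM59 is chr3:160449737-160450036 (minus strand), TRIM26 chr6:30213357-30213656 (minus strand), RNF40 chr16:30761362-30761661 (plus strand) and RNF126 chr19:663165-663464 (minus strand).
TRIM59: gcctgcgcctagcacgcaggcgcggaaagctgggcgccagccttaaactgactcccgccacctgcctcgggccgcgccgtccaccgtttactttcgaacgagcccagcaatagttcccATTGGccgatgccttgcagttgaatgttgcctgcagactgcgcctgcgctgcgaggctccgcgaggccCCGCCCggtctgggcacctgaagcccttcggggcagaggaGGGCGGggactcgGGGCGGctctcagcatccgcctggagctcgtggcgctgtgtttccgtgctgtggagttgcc
TRIM26: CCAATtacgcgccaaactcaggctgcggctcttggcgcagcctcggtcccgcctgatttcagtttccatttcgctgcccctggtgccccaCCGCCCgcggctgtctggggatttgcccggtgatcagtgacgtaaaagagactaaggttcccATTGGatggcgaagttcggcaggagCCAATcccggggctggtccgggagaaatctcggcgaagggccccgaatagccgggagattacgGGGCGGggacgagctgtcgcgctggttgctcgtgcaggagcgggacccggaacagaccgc
RNF40: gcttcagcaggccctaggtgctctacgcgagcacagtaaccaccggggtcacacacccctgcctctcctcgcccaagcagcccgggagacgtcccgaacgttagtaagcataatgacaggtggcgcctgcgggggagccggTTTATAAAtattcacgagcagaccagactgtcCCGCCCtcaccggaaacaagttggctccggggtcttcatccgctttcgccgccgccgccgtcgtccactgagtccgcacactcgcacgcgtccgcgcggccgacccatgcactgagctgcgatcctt
RNF126: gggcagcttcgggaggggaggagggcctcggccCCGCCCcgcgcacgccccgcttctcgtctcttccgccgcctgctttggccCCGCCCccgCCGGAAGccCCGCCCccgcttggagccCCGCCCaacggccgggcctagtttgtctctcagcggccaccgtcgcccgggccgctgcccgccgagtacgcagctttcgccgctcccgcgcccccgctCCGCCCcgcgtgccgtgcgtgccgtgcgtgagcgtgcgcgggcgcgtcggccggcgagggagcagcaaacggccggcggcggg
Each window holds a GC box, TRIM59 and TRIM26 hold a CCAAT box, RNF40 a TATA box and RNF126 an ETS core. TRIM26, with an observed to expected CpG ratio of 0.948, and RNF126, with 1.06, had no count in any library, whereas the ratio was 0.845 for TRIM59 and 1.04 for RNF40. TRIM26 and RNF126 were picked for their high ratio, so these windows do not compare names with and without counts.

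Windows were matched for 56 of 72 TRIM genes and 68 of 84 RNF genes. A CpG ratio above 0.6 was found for 25 of the 56 TRIM windows (44.6%) and 50 of the 68 RNF windows (73.5%), against 48.8% of the 27305 genes in the sequence table. With 10 counts in every library, it was found for 9 of 10 TRIM windows (90%) and 10 of 12 RNF windows (83.3%). Among TRIM genes it was found for 20 of 34 with a count (58.8%) and 5 of 22 without (22.7%). Among RNF genes it was found for 42 of 52 with a count (80.8%) and 8 of 16 without (50%). All gene names showed a difference of the same direction, with 73.3% of those with a count and 45.2% of those without. A GC box was present in 44.6% of TRIM and 69.1% of RNF windows, against 44.5% of the table, and a TATA box in 14.3% of TRIM and 10.3% of RNF windows, against 12.02%. A CCAAT box was present in 42.9% of TRIM and 41.2% of RNF windows, against 35.7%, and an ETS core in 5.36% of TRIM and 16.2% of RNF windows, against 10.6%. These matches describe letters in the windows, and no test was run on them.

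Of the TRIM groups by role, the transmembrane members TRIM13 and TRIM59 held the most counts, with 614, 1084 and 442 in replicates 1, 2 and 3. The 4 TIF1 members, which silence chromatin, summed to 21, 3 and 5 counts. TRIM28, the corepressor of KRAB zinc finger proteins, had 4, 0 and 1 counts, TRIM33 had 6, 0 and 3, and TRIM24 had 8, 0 and 0. Of 12 antiviral and innate immune members, 7 had a count, and TRIM14 made up 84, 88 and 34 of their 106, 104 and 37 counts. TRIM65 followed with 10, 11 and 3 counts, TRIM25, which ubiquitinates the RNA sensor RIG-I, had 2, 0 and 0, and TRIM21, TRIM22 and TRIM26 were among the 5 without a count. The 4 NHL repeat members had 42, 84 and 65 counts, nearly all of TRIM2, with TRIM3 at 2, 0 and 1 and no count for TRIM71, a stem cell regulator. The 4 COS box members, which bind microtubules, had 31, 11 and 8 counts, led by TRIM67 with 17, 7 and 8 and TRIM9 with 10, 4 and 0. Muscle ring finger members gave 3, 1 and 0 counts, all of TRIM54, with none for TRIM55 and TRIM63, the muscle atrophy ligase. The median level of the other lists in CPM per kilobase of exon, taken over each member's mean of 3 libraries with zeros included, was 0.741 for TIF1, 0.114 for antiviral, 0.398 for NHL repeat, 0.850 for COS box and 0 for muscle ring finger members, against 0.302 for all TRIM genes and 0.242 for all matched names.

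Several members without a count lie on the same chromosomes. Over all chromosomes 40.3% of TRIM genes, 26.2% of RNF genes and 45.3% of all names had no count. The share of all names on each chromosome is not given here, so no pattern particular to the families can be read from these numbers. Of 19 TRIM genes on chromosome 11, 12 had no count and the other 7 shared 29 counts over all libraries. Of 8 on chromosome 6, 7 had none (TRIM10, TRIM15, TRIM26, TRIM27, TRIM31, TRIM39 and TRIM40). The members listed as multicopy were almost empty: 12 of 14 had no count, TRIM43, TRIM43B and TRIM48 among them, with 2, 0 and 0 counts for TRIM77 and 0, 0 and 1 for TRIM50. Of the 12 without a count, 8 are also among the 12 on chromosome 11. Reads of similar copies can align to more than 1 place and be set aside by the counter, so the values of these members are uncertain. By contrast all 5 TRIM genes on chromosome 5 and all 6 on chromosome 17 had a count. Of the 7 RNF genes on chromosome 6, 5 had a count, with none for RNF5 and RNF182.

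Of the RNF groups, the histone and DNA damage members had the highest summed level. All 6 histone and DNA damage members had a count and summed to 633 ± 12.2 CPM (SD, n = 3), led by RNF40 and RNF169. RNF168, which ubiquitinates histone H2A at breaks, had 16, 14 and 10 counts, but its upstream partner RNF8 had 0, 6 and 1, the Polycomb ligase RNF2 had 1, 2 and 0, and RNF20 had 0, 2 and 1 against 171, 117 and 129 for its partner RNF40. The 7 ER membrane members summed to 315 ± 9.66 CPM (SD, n = 3), mainly RNF139 with 107, 101 and 75 counts and RNF170, a ligase for the inositol trisphosphate receptor, with 19, 28 and 15, and with none for RNF5. Innate immune members, all 6 with a count, summed to 333 ± 72.3 CPM (SD, n = 3), led by RNF213 and by RNF125 with 16, 5 and 10 counts. Of 9 members with a protease-associated domain, 5 had a count and summed to 302 ± 85.0 CPM (SD, n = 3), led by RNF13 and by RNF43, which removes Wnt receptors from the cell surface, with 35, 44 and 12 counts. RNF128, RNF133 and RNF148 were among the 4 without one.

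Among RING-between-RING members, 7 of 8 had a count, led by RNF19A with 10, 17 and 12 and RNF217 with 8, 8 and 7, while RNF31, the catalytic subunit of the linear ubiquitin chain complex, had none. The SUMO-targeted ligases RNF4 and RNF111 had 19, 26 and 9 counts and 4, 0 and 8 counts. Of the 4 germline members only RNF212B had a count, with 62, 91 and 48, and RNF151, RNF17 and RNF212 had none. Median levels of the RNF lists lay between 0 and 3.87 CPM per kilobase of exon, against 1.14 for all RNF genes and 0.242 for all matched names.

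Other genes of the ubiquitin pathway were listed apart from the members. Of 33 E1 and E2 genes, 28 had a count and summed to 917 ± 54.2 CPM (SD, n = 3). UBE2D4 led with 84, 108 and 58 counts and UBE2R2 followed with 41, 45 and 28, and UBE2D1, UBE2E2 and UBE2J2 were among the 5 with none. Of 10 RING genes related to the families but named otherwise, 8 had a count, led by RNFT1 with 29, 68 and 21 and RLIM with 48, 12 and 24, and PML (once TRIM19) and RING1 had none.

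Members with exons opposite another gene's exons collected most of the counts in both families. Such an overlap of at least 1 bp was annotated for 20 of 72 TRIM genes (27.8%) and 38 of 84 RNF genes (45.2%), against 31.7% of all matched names. These members held 84.6% ± 3.19 of TRIM counts and 78.1% ± 2.69 of RNF counts, against 82.6% ± 1.11 for all matched names (SD, n = 3 each). They carried 35.4% of TRIM exon length and 53.3% of RNF exon length, against 40.5% for all matched names. The bar of 10 counts in each library was passed by 8 of 20 TRIM and 12 of 38 RNF genes with such an overlap. This compares with 2 of 34 TRIM and 2 of 35 RNF genes with no gene on the other strand, and with 21.7% and 3.17% of all matched names in these classes. As shares these were 40% of TRIM and 31.6% of RNF genes with such an overlap and 5.88% and 5.71% of those with no gene on the other strand. Both shares lay above those of all names in either class, but with no gene on the other strand they rest on 2 genes of each family. All names also include genes that are not protein-coding, and their median exon length was 3550.5 bp against 4383.5 bp for the members. The share of counts in members with an overlap was, however, close to that of all names in both families. Without TRIM13 the TRIM share was 71.9% ± 2.91 (SD, n = 3), and with protein-coding opposite genes alone it was 20.6% ± 0.609. The genes opposite TRIM13, TRIM52, TRIM17 and TRIM41 are among those that are not protein-coding.

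**Figure D3:**
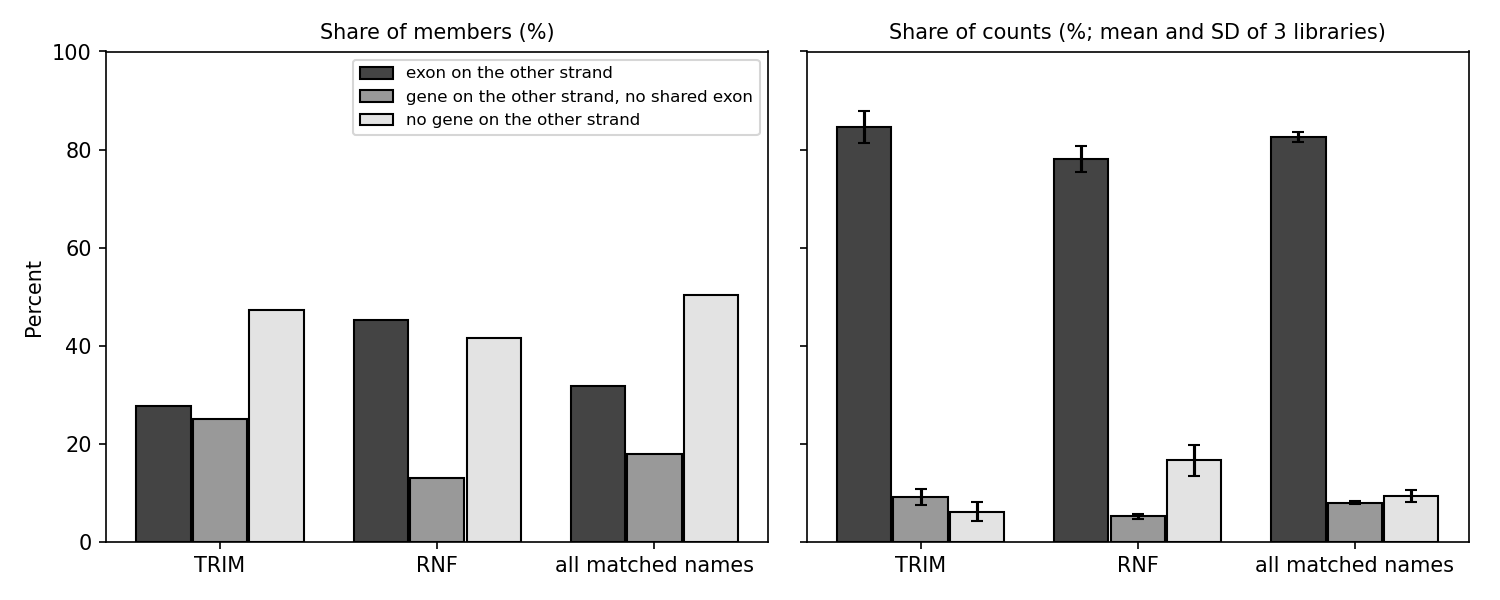
Left, the share of TRIM members, RNF members and all matched gene names by what lies on the other strand. Right, the share of their counts in each class (mean and SD of 3 libraries). Exonic overlap covers 27.8% of TRIM and 45.2% of RNF members but 84.6% and 78.1% of their counts.

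RNF139, RNF146, TRIM45 and TRIM58 were the 4 members that reached 10 counts in every library with no gene on the other strand. RNF139 led these with 242 ± 7.66 CPM, TRIM45 had 103 ± 9.19, RNF146, which marks axin for degradation, had 87.2 ± 18.4 and TRIM58 had 33.9 ± 6.79 CPM (SD, n = 3 each). The mean of TRIM45 differed from that of RNF146 by less than the larger SD. TRIM2, TRIM23, which carries an ARF GTPase domain, and RNF170 reached it with a gene on the other strand but no shared exon.

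Where both overlapping genes were in the tables, either could be the higher. For 11 TRIM and 25 RNF genes, at least 1 gene sharing exon on the other strand had a row of its own, and the one sharing most was taken. Per kilobase of exon the member was higher in every library in 4 TRIM and 9 RNF pairs, and the opposite gene in 3 TRIM and 11 RNF pairs. The order was mixed or tied in 3 TRIM and 4 RNF pairs, and neither gene had a count in 1 pair of each family. RNF32 had 83, 148 and 74 counts against 1, 2 and 0 for LMBR1, and RNF212B had 62, 91 and 48 against 9, 2 and 1 for HOMEZ. TRIM14 had 84, 88 and 34 counts against 6, 0 and 5 for NANS, the sialic acid synthase gene. In these pairs nearly all counts went to the member.

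In others the opposite gene had more counts. RNF43 had 35, 44 and 12 counts against 1184, 909 and 919 for BZRAP1-AS1, over 1521 bp of shared exon. RNF169 had 84, 133 and 55 counts against 362, 551 and 282 for XRRA1, over 2184 bp, and both were highest in replicate 2. RNF214 had 0, 0 and 2 counts against 122, 162 and 76 for BACE1, the beta-secretase gene, over 1239 bp. RNF215 had 2, 0 and 0 counts against 41, 42 and 27 for CCDC157, over 3098 bp. TRIM66 had 3, 3 and 1 counts against 46, 33 and 17 for the ribosomal protein gene RPL27A. RNF207, a cardiac regulator, differed from these, with 63, 42 and 21 counts against 21, 14 and 16 for the ribosomal protein gene RPL22, and there the order was mixed per kilobase.

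**Figure D4:**
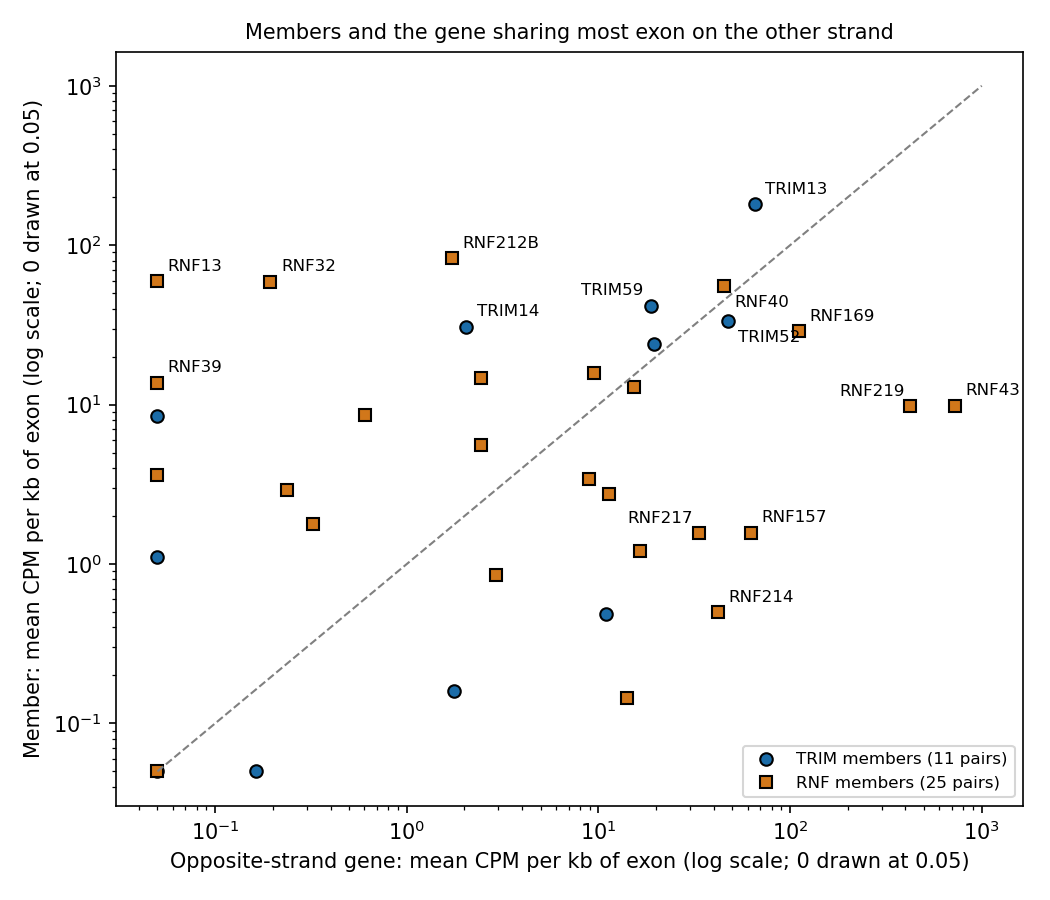
Mean CPM per kilobase of exon of 11 TRIM and 25 RNF members (vertical, log axis) against the gene in the tables that shares most exon with them on the other strand (horizontal, log axis). The dashed line marks equal levels and a value of 0 is drawn at 0.05. Points lie far on both sides of the line, RNF32 and RNF13 above it and RNF219, RNF43 and RNF214 below it.

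Some genes named after a member had far more counts than the member. RNF219, a ligase of the replication origin recognition complex, had 8, 14 and 16 counts, whereas RNF219-AS1 had 1447, 1810 and 1121. Per kilobase of exon this was 9.76 ± 4.91 CPM for RNF219 and 424 ± 49.3 CPM for RNF219-AS1 (SD, n = 3 each), and the genes share 1448 bp at their 3' ends on chromosome 13. RNF157 had 10, 6 and 0 counts against 65, 56 and 46 for RNF157-AS1, and RNF217 had 8, 8 and 7 against 88, 45 and 44 for RNF217-AS1. In other pairs the exons do not overlap. There RNF139 had 107, 101 and 75 counts against 58, 51 and 60 for RNF139-AS1, TRIM52 had 76, 110 and 71 against 4, 1 and 1 for TRIM52-AS1, and RNF144A had 3, 3 and 0 against 5, 6 and 13 for RNF144A-AS1. RNF103 had 2, 0 and 2 counts against 4, 0 and 1 for the readthrough RNF103-CHMP3. RNF216-IT1, TRIM31-AS1, TRIM39-RPP21 and TRIM6-TRIM34 had none.

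Variation between the libraries was tested for the 27 members with at least 10 counts in every library, within a fit of all 2564 such genes. With edgeR's Poisson fit, 6 of 12 TRIM genes and 8 of 15 RNF genes had an adjusted p under 0.05, or 50% and 53.3%, against 45.8% of all tested genes. The members' share was thus near that of all genes in this fit. With total counts as library sizes, 9 of 27 members were called, a lower share than the 46.7% of all genes. Replicate 2 was the highest library in 4 of the 6 TRIM and 6 of the 8 RNF genes called, or 71.4% of the called members, against 49.3% of all called genes. Those 10 members were among 27 tested, and 22.6% of all tested genes were both called and highest in replicate 2. Without replicate 2, 2 TRIM genes (TRIM2 and TRIM37) and 1 RNF gene (RNF207) were called, against 9.45% of 2784 genes tested. The median excess coefficient of variation, the spread beyond counting noise relative to the mean, was 0.179 over tested TRIM genes and 0.209 over tested RNF genes, against 0.200 over all tested genes.

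TRIM13 varied most clearly, with replicate 2 above the mean of the others by a log2 ratio of 0.87 and an excess coefficient of variation of 0.371 (edgeR, adjusted p = 3.37e-33). TRIM37 had the largest excess coefficient of variation, 0.407 (edgeR, adjusted p = 7.31e-05), and TRIM2 had 0.366 (edgeR, adjusted p = 0.000111), with replicate 1 low in both. TRIM7, a ligase that binds glycogenin, had 41.1, 80.7 and 39.6 CPM (edgeR, adjusted p = 0.0474). TRIM14 and TRIM59 were the other TRIM genes called, with adjusted p-values from edgeR of 0.0155 and 0.00552. TRIM52 missed the threshold at 0.0642 (edgeR), with 0.0109 to 0.750 over the alternatives run. Without replicate 1 the calls of TRIM2, TRIM37 and TRIM7 were lost, without replicate 2 those of TRIM13, TRIM14, TRIM59 and TRIM7, and without replicate 3 that of TRIM14. With total counts the calls of TRIM59 (adjusted p = 0.205, edgeR) and TRIM7 (0.168) were lost, and without the count filter that of TRIM7 (0.0801).

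Among RNF genes, RNF213 was called with a log2 ratio of replicate 2 to the others of 0.79 (edgeR, adjusted p = 3.68e-05), RNF32 with 0.65 (0.000310), RNF13 with 0.59 (0.000690) and RNF169 with 0.72 (0.00125). RNF43, at 80.0, 101 and 39.6 CPM, and RNF10, a ligase for ribosomal proteins of the small subunit, at 27.4, 71.5 and 52.7 CPM, were called with adjusted p-values from edgeR of 0.0195 and 0.0287. RNF40 went the other way, with a log2 ratio of -0.60 (edgeR, adjusted p = 0.00198), and RNF207 was highest in replicate 1, with 144, 96.8 and 69.2 CPM (edgeR, adjusted p = 0.0175). Without replicate 1 the calls of RNF10, RNF13, RNF32 and RNF207 were lost, without replicate 3 those of RNF43 and RNF207, and without replicate 2 all except that of RNF207. With total counts the calls of RNF169 (adjusted p = 0.0512, edgeR), RNF43 (0.0566) and RNF10 (0.0856) were lost, and without the count filter that of RNF10 (0.0559). RNF139 had no spread beyond counting noise (edgeR, adjusted p = 0.931), nor had TRIM45 (0.805), RNF168 (0.951) or TRIM17 (0.679). With total counts as library sizes, which shift the median gene in replicate 2 to a log2 ratio of -0.23 against 0.0047 with TMM, 3 of the 6 TRIM and 6 of the 8 RNF genes were still highest in replicate 2.

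**Figure D5:**
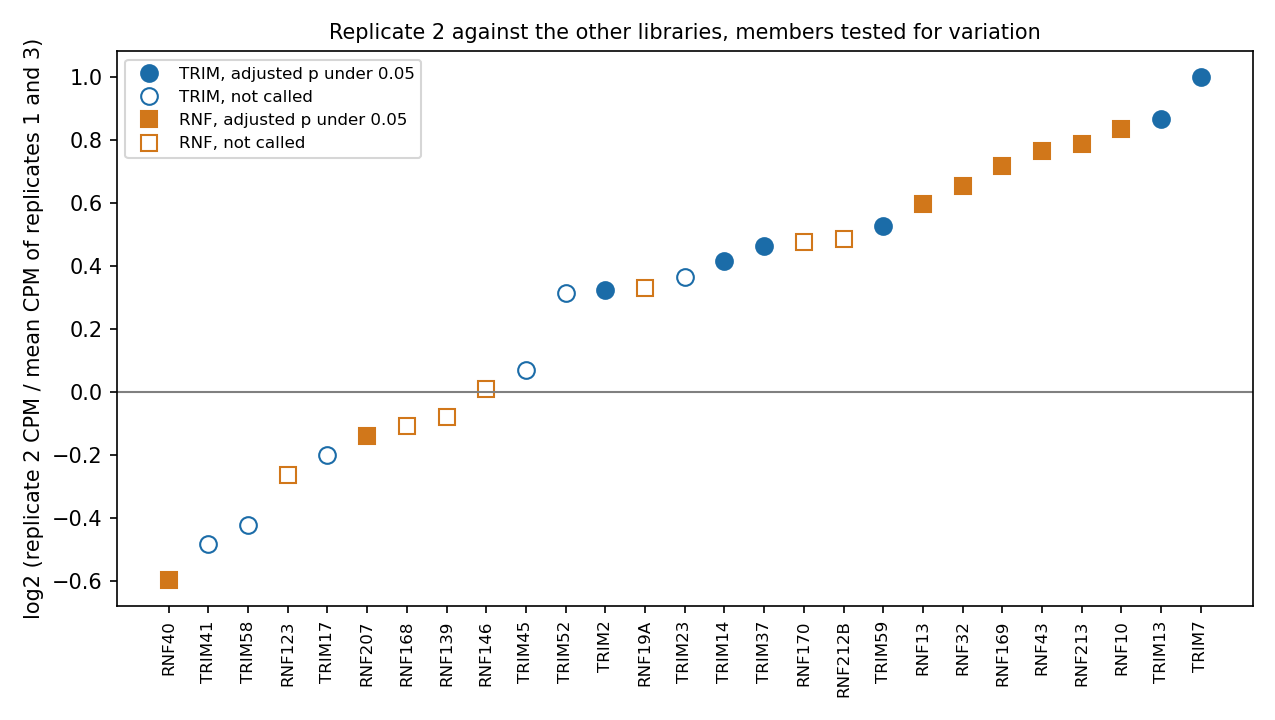
Log2 ratio of CPM in replicate 2 to the mean of replicates 1 and 3 for the 27 members tested, in rising order. Filled symbols had an adjusted p under 0.05. Of the 14 filled symbols, RNF40 and RNF207 lie below 0 and the other 12 above it, up to 1.00 for TRIM7.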

How the data were processed

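The deposited files hold raw counts per gene symbol, 1 file for each of 3 HEK293 libraries. Per the labels' protocols, ribosomal RNA was removed from total RNA before a directional library kit. Per the submitters' processing notes, Trimmomatic, TopHat2 2.2.5 and HTSeq 0.11.2 were used with hg38. The sources used here give neither the gene annotation nor the strand option. The 5 summary lines, 91.2% (no feature), 6.77% (not unique) and 0.0184% (ambiguous) of records on average, were left out.

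CPM came from TMM effective library sizes (edgeR 4.0.16, R 4.3.3). Variation was tested over every gene reaching 10 counts in each library by edgeR's generalised linear model with an intercept alone and dispersion 0: the p-value came from the chi-square distribution of the deviance, with Benjamini-Hochberg adjustment and a threshold of 0.05. This fit has no contrast, since the design has a single group. Poisson counts were simulated for this test with replicate 2 changed in some genes. Of these, 27.9% of 61 genes changed 1.5-fold, 74.6% of 67 changed 2-fold, 100% of 64 changed 4-fold and 0.143% of 2790 unchanged genes were called. Unchanged genes held counting noise alone, as the test assumes. The last share therefore gives no rate of false calls for the real libraries.

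Exons came from GENCODE release 29 (GRCh38), a stand-in for the annotation used to count; all 156 members matched by name, and 23900 of 26485 names did, with 682 more through RefSeq synonyms. Exons of a gene were merged over transcripts. Start windows came from RefSeq. Named genes were, in each family, the 8 highest by CPM and by CPM per kilobase, members called, up to 10 by excess coefficient of variation, in each list the 2 highest and up to 3 without a count, genes opposite these and genes named after a member. RNF8, RNF2, RNF20, RNF168, TRIM28, TRIM25, TRIM58, TRIM23, RNF170, RNF214, RNF215 and some others were named after their values were seen. Members and lists were chosen with earlier results of these data known. Alternatives were DESeq2 1.42.0 size factors, total counts, no count filter, a Pearson statistic, other overlap and length rules and leaving out each replicate. Python 3.11.15, pandas 2.3.3, numpy 2.4.6 and matplotlib 3.10.9 were used.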

Additional observations from a re-analysis of the deposited data

How the results depend on the processing

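The order of the families depended on the measure. The log2 ratio of summed TRIM to RNF CPM was 0.14, but -0.43 per kilobase of exon, -0.54 without the highest member of each family, -0.39 over members with no opposite-strand exon and, in an alternative chosen after seeing the data, -0.75 without TRIM13 alone. It was 0.36 as a mean per member. It ran from 0.038 to 0.22 when each replicate was left out. Over all names, a single name held 22.0% of gene-assigned counts, so CPM values depend on whether such a name is kept. With TSIX left out of the library size the sums were 3966 CPM for TRIM and 3553 CPM for RNF, against 3121 and 2796 CPM. Without the highest member they were 1663 and 2434 CPM. Members counted fell to 20 TRIM and 37 RNF genes with a count required in every library and to 12 and 15 with at least 10 in every library, and lay between 36 and 41 TRIM and 58 and 62 RNF genes when each replicate was left out. The mean over libraries of the median CPM per kilobase with zeros was 0.103 for TRIM and 1.15 for RNF, and 1.22 and 2.42 over members with a count. For TRIM it was 0 without replicate 1 and 0.163 without replicate 2. Shares of counts with opposite-strand exons were 79.5% (TRIM) and 73.6% (RNF) for at least 100 shared bases, 20.6% and 59.5% for protein-coding opposite genes, 71.9% and 74.7% without the highest member and, chosen after seeing the data, 77.1% and 64.5% for opposite genes named in the tables. The cause was not tested.

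Members called as varying numbered 6 TRIM and 8 RNF genes, and 4 and 5 with total counts, when RNF10, RNF169, RNF43, TRIM59 and TRIM7 were lost. With total counts this was 9 of 27 members, against 46.7% of all genes. DESeq2 size factors gave 16 of 27 members, against 47.5% of all genes. Without a count filter they numbered 8 and 15, of which 12 were called in both fits and RNF10 and TRIM7 were lost. Leaving out a replicate gave 2 to 6 TRIM and 1 to 7 RNF genes: all 3 left without replicate 2 and all 7 left without replicate 1 were among the 14, and without replicate 3 there were 11 of them and RNF212B and TRIM52. Members called were 7 of 28 without replicate 1, 3 of 28 without replicate 2 and 13 of 31 without replicate 3. The shares of all genes were 28.9%, 9.45% and 34.3%. Over all genes 2914 of 14482 were called without the filter, against 1175 of 2564. No paired analysis was possible because the series has 1 group. Depth limits single members: a count of 0 allows up to 6.86 to 9.89 CPM.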
